A study of Homo sapiens with 8 samples.

Results

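SNU1079 and SSP25, 2 human cholangiocarcinoma (CCA) cell lines, were compared with each other across everything they had been exposed to. All 8 libraries of the series entered the comparison, 4 of each line, and each SNU1079 library was set against the SSP25 library of the same treatment. Both lines had been kept for 48 h with 0.01% DMSO as vehicle, with BETp (ARV825, 40 nM, a degrader of BET bromodomain proteins that works through cereblon), with mTORi (AZD8055, 50 nM, an inhibitor of the mTOR kinase) or with both drugs, called the combination here, for which the labels give no doses. Per the labels all samples are of wild-type genotype, meaning that no gene had been altered for the experiment. Per the study's methods SNU1079 came from the Korean Cell Line Bank and SSP25 from RIKEN, and both grew in high-glucose DMEM with serum. In the study's sequencing, SNU1079 carried mutations of IDH1 and ARID1A with amplified CCND1. Each line was thus 1 tumour line, with 1 culture and 1 library per treatment, so the 4 libraries of a line were treatments and not repeat cultures.

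CCA arises from the bile ducts of the liver. Cholangiocytes, the cells that line them, keep keratin filaments, tight junctions and water channels under transcription factors such as SOX9, and cultured tumour lines keep these traits to different degrees while some take on extracellular matrix and protease genes of mesenchymal cells. Lines of the same tumour type also part in how they handle glucose, serine and oxidants, in p53 target genes, growth signalling and in inflammatory secretion, and these are the groups of genes described below.

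Values were TPM, a level per length of transcript on a scale with the same total in each library, 1 table per line with 56269 genes each. Reads cannot be recovered from TPM, so the depth of each library is unknown, and the 2 tables are not known to have been scaled together. Each line stood in a table of its own, and a difference between lines cannot be told apart from one between preparation or sequencing runs. Where 4 values are listed for a line they stand in the order vehicle, BETp, mTORi and combination. Differences are log2(TPM + 1) of SNU1079 minus SSP25, the mean of 4 pairs ± SE (limma with treatment as a block, n = 4 per line), so a positive value is higher in SNU1079. This scale understates the change of low genes. In RNA of a whole culture, fewer cells with a transcript and less of it per cell cannot be told apart. A gene was called at a Benjamini-Hochberg adjusted p under 0.05 over the 16060 genes that reached 1 TPM in at least 2 libraries, and differences with an SE passed that threshold unless said otherwise. Counts over a list include members that passed the filter through 1 line alone, which had to differ. The test asks how steady a difference was over treatments, since no line had repeat cultures.

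The labelled identity was checked against marker genes. Both lines held the biliary keratins KRT7 and KRT19, at 2909 to 3746 TPM and 1527 to 1927 TPM in SNU1079 and 404 to 812 TPM and 307 to 465 TPM in SSP25. The epithelial adhesion molecule EPCAM ranged from 0.9 to 1.74 TPM in SSP25, so this cholangiocyte marker was near 0 there. Of 29 hepatocyte markers 7 passed the filter, 6 of them through SNU1079 alone, and 6 were called higher in SNU1079 (3 at least 2-fold) and 1 in SSP25. Of all genes tested 38.2% were called higher in SNU1079 (18.2% at least 2-fold) and 35.8% in SSP25 (17.1% at least 2-fold). ALB (albumin) was at most 0.21 TPM, APOA1 at most 0.11 TPM and HNF4A at most 1.41 TPM, while SERPINA1 was at 7.64 to 41.8 TPM in SNU1079 and 0 to 0.57 TPM in SSP25, and the urea cycle enzyme CPS1 at 9.4 to 14.3 TPM and 0 to 0.24 TPM. The fetal protein AFP was at 0 to 0.84 TPM in SNU1079 and 1.5 to 3.37 TPM in SSP25. Of 30 markers of fibroblasts, endothelium and blood, 24 stayed below the filter, among them DCN, PECAM1, PTPRC, CD3E and HBB (at most 0.49 TPM in any library), and of the 6 tested 2 were at least 2-fold higher in SNU1079, among them the collagen gene COL1A1, and 3 in SSP25, the matrix protein LUM (8.93 to 24.9 TPM), CD14 (13.9 to 32.4 TPM) and CD68, which both lines held.

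The line was the largest source of variation. It accounted for 86.7% of the variance of log2 values over all genes, treatment shared by both lines for 8.16% and the remainder for 5.11%. The median absolute line difference was 0.71, against 0.18 to 0.29 for the change from vehicle that a drug or the combination made within a line. Of the 16060 genes tested, 11881 were called (74%), 6136 higher in SNU1079 (38.2%) and 5745 higher in SSP25 (35.8%). Without repeat cultures a call alone says little, so size is used below. At least 2-fold apart and called were 5668 genes (35.3%), 2924 higher in SNU1079 (18.2%) and 2744 higher in SSP25 (17.1%). The 4 values of each line did not overlap in 10173 genes (63.3%). Some 3823 genes were 2-fold apart in the same direction in all 4 pairs, and 106 were 2-fold apart in both directions, with at least 1 pair each way. Transcripts of the mitochondrial genome and of ribosomal proteins together took a larger share of SNU1079 libraries (16.5% and 19.5% of TPM on average) than of SSP25 libraries (8.0% and 13%). When values were rescaled without those genes, the median difference of all genes moved from 0.05 to 0.32, a shift of 0.271, and 63.8% of calls were higher in SNU1079 in place of 51.6%. Group medians close to 0 therefore have no firm sign.

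**Figure D1:**
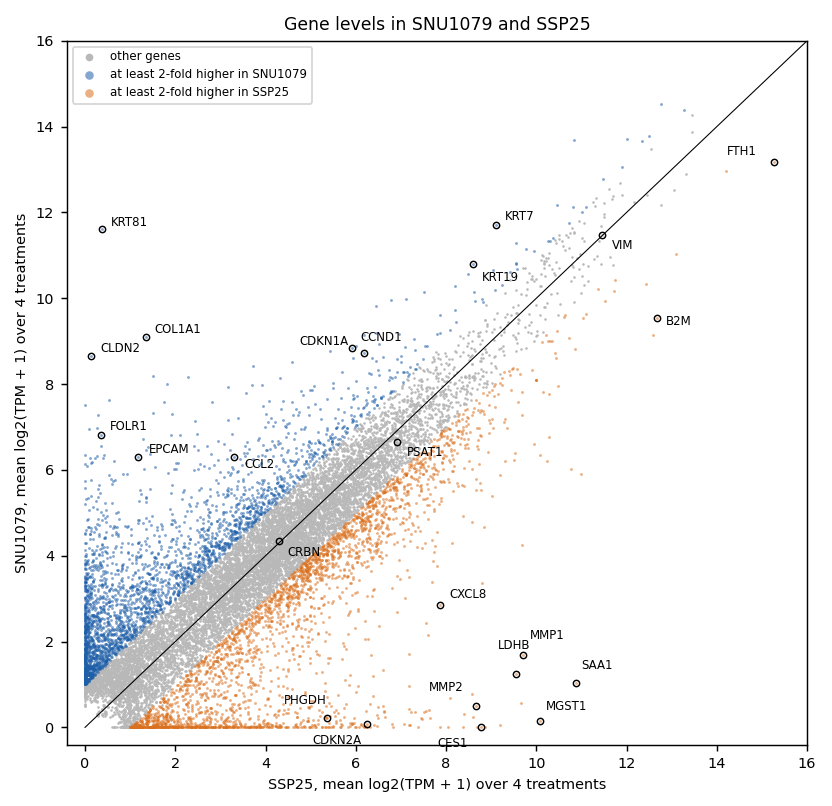
Mean log2(TPM + 1) over 4 treatments in SSP25 (horizontal axis) and SNU1079 (vertical axis) for the genes tested, sex marker genes left out, with genes called at least 2-fold apart in colour and named genes labelled. Points on the 2 axes are genes near 0 in 1 line, such as KRT81 with 0.308 TPM and MGST1 with 0.11 TPM in the line that lacked them.

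The widest gaps were close to all or none. KRT81, a hair-type keratin that shares sequence with its copy KRT86, measured 3072, 3383, 2815 and 3256 TPM in SNU1079 and 0.33, 0.15, 0.56 and 0.19 TPM in SSP25, a difference of 11.23 ± 0.12 (limma adjusted p = 2.28e-08). The pore-forming claudin CLDN2 measured 490.5, 414, 426 and 301 TPM in SNU1079 and 0.21, 0.07, 0.09 and 0.03 TPM in SSP25, at 8.52 ± 0.11. In the opposite direction MGST1, a membrane-bound glutathione transferase, measured 0.11, 0.17, 0 and 0.16 TPM in SNU1079 and 1195, 1112, 1066 and 989 TPM in SSP25, at -9.94 ± 0.09 (adjusted p = 1.01e-08 by limma). For each of these genes the lowest library of the high line stood far above the highest library of the other, whatever the drug.

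By a stricter rule, at least 10 TPM in all 4 libraries of a line and at most 0.1 TPM in all 4 of the other, 29 genes were present in SNU1079 only (0.181%) and 81 in SSP25 only (0.504%), of which 26 and 71 were protein-coding. In SNU1079 these included FXYD2, a regulator of the sodium pump, at 154 to 201 TPM, CYFIP2, a cytoskeletal regulator and p53 target, at 75.9 to 88.7 TPM, the kidney cadherin CDH16 at 26.6 to 97.4 TPM, and TEX19, normally a germ cell gene, at 46.8 to 99.6 TPM. In SSP25 they included BEX1, a small brain-expressed protein, at 346 to 648 TPM, the carboxylesterase CES1 at 361 to 514 TPM, the lipolysis inhibitor G0S2 at 349.8 to 488 TPM, PTGR1, which reduces prostaglandin and lipid aldehyde products, at 200.0 to 354 TPM, the protease inhibitor SERPINE2 at 173 to 298 TPM and the membrane-binding annexin ANXA6 at 97.3 to 124 TPM. FXYD2, CDH16, BEX1, CES1, G0S2, PTGR1, SERPINE2 and ANXA6 were listed at 0 in all 4 libraries of the other line. RAC2, a GTPase of blood cells, was at 344 to 409.9 TPM in SSP25 against 0.06 to 0.37 TPM in SNU1079, and the neural adhesion molecule L1CAM at 312 to 387 TPM against 0.05 to 0.51 TPM. The count of 110 such genes became 439 with limits of 5 and 0.5 TPM.

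Keratins of simple epithelia were shared but stronger in SNU1079. KRT18 measured 1925, 1959, 1229.7 and 1167 TPM in SNU1079 and 380.2, 419.7, 293 and 343 TPM in SSP25, at 2.10 ± 0.10. KRT19 stood 2.20 ± 0.09 apart, KRT7 2.59 ± 0.24 and KRT8 1.37 ± 0.07. Of 9 keratins tested of 16 listed, 7 were at least 2-fold higher in SNU1079 and 0 in SSP25, with a median of 2.12 beside 0.05 for all genes. Of the 9, 3 passed the filter on low values through SNU1079 alone and thus had to differ. Keratin mRNAs together took 1.23% of TPM in SNU1079 and 0.223% in SSP25. The paired difference was 1.01 ± 0.148 percentage points (SD over 4 pairs), higher in all 4 pairs (exact two-sided sign-flip p = 0.125, the smallest that 4 pairs can give).

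Other cholangiocyte genes were mostly SNU1079 genes. EPCAM measured 101, 61.6, 101 and 59.7 TPM in SNU1079 and 1.74, 0.9, 1.51 and 1.02 TPM in SSP25, at 5.13 ± 0.11. The RNA-binding protein BICC1 and the ciliary protein DCDC2, both tied to cystic or sclerosing bile duct disease, were 5.87 ± 0.11 and 5.11 ± 0.15 higher in SNU1079, and the water channel AQP1 4.45 ± 0.25. SOX9, an early biliary factor, went the opposite way, at 5.72, 9.32, 5.81 and 8.52 TPM in SNU1079 and 25.5, 28.6, 19.6 and 23.5 TPM in SSP25 (-1.62 ± 0.12), as did the secreted phosphoprotein SPP1 (-1.24 ± 0.16). Neither line matched the whole marker set. Of 19 markers tested of 24 listed, 10 were at least 2-fold higher in SNU1079 and 2 in SSP25, and 5 of the 19 passed the filter through SNU1079 alone.

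Transcription factors of liver and foregut divided the lines in a like manner. FOXA1 and FOXA2, pioneer factors of endoderm, stood 2.33 ± 0.20 and 2.36 ± 0.15 higher in SNU1079, and GATA4 was at 4.53 to 6.83 TPM there and listed at 0 in SSP25. The epithelial ETS factors were exchanged. ELF3 measured 221, 339, 135 and 239 TPM in SNU1079 and 14.3, 15, 10.3 and 6.33 TPM in SSP25 (4.22 ± 0.22), while EHF measured 0.59, 0.43, 0.25 and 0 TPM and 99.6, 73.9, 66.5 and 59.2 TPM (-5.84 ± 0.10). The endoderm factor SOX17 was at 8.15 to 13.4 TPM in SSP25 and listed at 0 in SNU1079. Of 21 factors tested of 29 listed, 12 were at least 2-fold higher in SNU1079 and 5 in SSP25, with a median of 1.71 that became -0.019 among those passing a filter at 5 TPM. Of the 21, 10 passed the filter through SNU1079 alone and 2 through SSP25 alone.

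**Figure D2:**
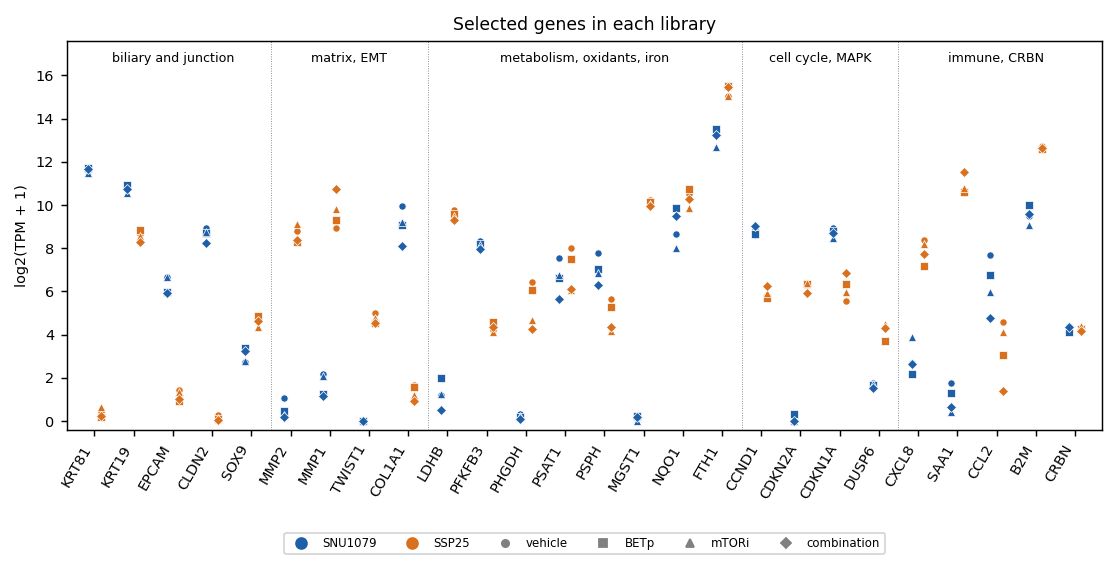
log2(TPM + 1) of 26 genes in each of the 8 libraries, SNU1079 in blue and SSP25 in orange, with 1 marker shape per treatment and genes grouped by role. The 4 treatments of a line lie close together beside the gap between lines, except in genes such as PHGDH in SSP25, where 18.5 to 85.5 TPM were measured.

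Cell junction genes had a median of 1.06, with 15 of 29 tested members at least 2-fold higher in SNU1079 and 5 in SSP25, and 8 of the 29 passed the filter through SNU1079 alone and 2 through SSP25 alone. The tricellular junction protein LSR measured 56.7, 52.5, 53.5 and 50.4 TPM in SNU1079 and 0.86, 0.37, 0.76 and 0.41 TPM in SSP25 (5.10 ± 0.11), and the desmosome protein DSP 21.6 to 27.2 TPM and 0.05 to 0.07 TPM (4.59 ± 0.12). E-cadherin (CDH1) was not part of this contrast, since it stayed at most 1.4 TPM in every library of either line and did not reach the filter. Both lines held N-cadherin (CDH2), vimentin (VIM) and the repressor ZEB1 at like levels, at -0.021 ± 0.13, 0.01 ± 0.06 and -0.18 ± 0.09, none of them called (limma adjusted p = 0.892, 0.884 and 0.118). VIM was called at 0.32 after rescaling without mitochondrial and ribosomal protein genes.

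Matrix and mesenchymal genes were higher in SSP25 in most cases, with a median of -1.89, 19 of 31 tested members at least 2-fold higher there and 3 in SNU1079. Of the 31, 7 passed the filter through SSP25 alone and 1 through SNU1079 alone. The gelatinase MMP2 measured 1.11, 0.39, 0.21 and 0.13 TPM in SNU1079 and 447, 314, 557 and 338 TPM in SSP25 (-8.16 ± 0.18). LOX, which cross-links collagen, was at 0.03 to 0.11 TPM and 48.6 to 68.8 TPM (-5.81 ± 0.13). FAP, a surface protease of activated fibroblasts, was at 16.5 to 56.5 TPM in SSP25, and the EMT factor TWIST1 at 22 to 31.4 TPM in SSP25 and listed at 0 in SNU1079. The matrix proteins tenascin C (TNC) and fibronectin (FN1) were -4.27 ± 0.18 and -3.14 ± 0.28. SNU1079 had its own matrix and contractile genes. COL1A1, the main chain of type I collagen, measured 1003, 546, 599 and 272 TPM in SNU1079 and 2.16, 2, 1.29 and 0.91 TPM in SSP25 (7.75 ± 0.18), with the fibroblast gene DCN at most 0.19 TPM in any library. The cadherin CDH6 was 4.18 ± 0.15 higher in SNU1079 and smooth muscle actin (ACTA2) 4.08 ± 0.09.

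Secreted proteases and their inhibitors were at least 2-fold higher in SSP25 in 16 of 27 tested cases and in SNU1079 in 8, with 7 of the 27 past the filter through SSP25 alone and 2 through SNU1079 alone. The interstitial collagenase MMP1 measured 3.6, 1.37, 3.24 and 1.25 TPM in SNU1079 and 494, 638, 910.2 and 1685 TPM in SSP25 (-8.03 ± 0.39). MMP14, the membrane protease that activates MMP2, was -6.24 ± 0.13, urokinase (PLAU) -5.84 ± 0.14 and its inhibitor SERPINB2 -6.72 ± 0.13. Matrilysin (MMP7), a protease of epithelial cells, was an exception, at 195, 185, 107 and 68.2 TPM in SNU1079 and 28.6, 8.48, 27.3 and 7.05 TPM in SSP25 (3.01 ± 0.33).

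HOX genes, which record position along the body axis, were higher in SSP25 in 17 of 23 tested cases at least 2-fold and in SNU1079 in 2, with a median of -2.09, though 13 of the 23 passed the filter through SSP25 alone. In the HOXB cluster HOXB2 measured 14.3 to 29.4 TPM in SSP25 against 0.05 to 0.74 TPM in SNU1079 (-4.11 ± 0.20), and HOXB6 17.5 to 26.4 TPM against 0.25 to 0.7 TPM (-3.99 ± 0.12). Genes of the same cluster are neighbours and not independent of each other. Cancer-testis genes, germ cell genes that tumours switch on, were exchanged between the lines. Of 15 tested, 5 were at least 2-fold higher in SNU1079 and 10 in SSP25, and 4 and 8 of these 15 passed the filter through that line alone. MAGEA1 was at 32.9 to 42.2 TPM in SNU1079 and 0 to 0.35 TPM in SSP25, whereas MAGEA3 was at 0.07 to 0.51 TPM and 85.3 to 92.6 TPM, and PRAME at 0 to 0.08 TPM and 43.7 to 56.1 TPM. GAGE1 was at 169.8 to 232 TPM in SNU1079 and SPANXA1 at 499 to 736 TPM in SSP25, and reads of the MAGEA, GAGE and SPANX families can be split among near-identical copies, so values of single copies are uncertain. Imprinted genes were exchanged as well. SNRPN, MEST and the growth factor IGF2 were 4.93 ± 0.12, 4.11 ± 0.13 and 3.34 ± 0.16 higher in SNU1079, while the growth inhibitor CDKN1C was at 5.67 to 12.3 TPM in SSP25 and at most 0.1 TPM in SNU1079.

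**Figure D3:**
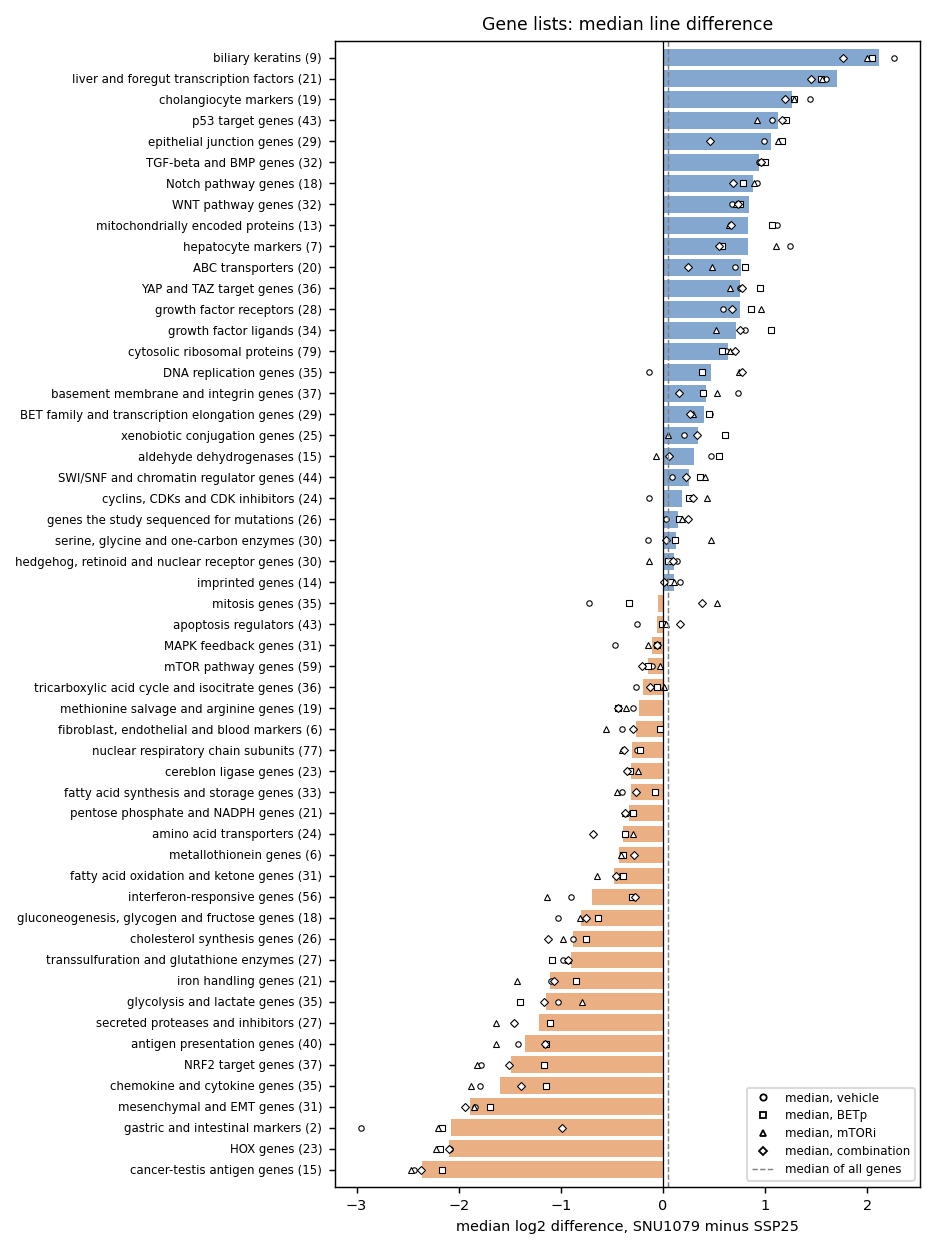
Median log2 difference (SNU1079 minus SSP25) of each of 54 gene lists, drawn as a bar from 0 beside the 4 medians of single treatments (small markers), with the number of genes tested in brackets. Chemokine, antigen presentation, NRF2 target, glycolysis, mesenchymal and HOX lists lie below -1, and keratins, transcription factors (-0.019 with a filter at 5 TPM), junction and p53 target lists lie above 1, beside a median of 0.05 for all genes (dashed line).

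Glucose and lactate genes separated the lines clearly. Lactate dehydrogenase is made of an A subunit and a B subunit, and the B subunit was almost lacking in SNU1079. LDHB measured 1.34, 2.96, 1.36 and 0.45 TPM in SNU1079 and 885, 778, 723 and 623 TPM in SSP25, a difference of -8.30 ± 0.18 (limma adjusted p = 1.3e-07). LDHA was present in both but lower in SNU1079, at 1166, 911, 771 and 496 TPM against 2558, 3319.5, 1339.9 and 2006 TPM (-1.45 ± 0.20).

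The steps before lactate dehydrogenase were lower in SNU1079 too. The glucose transporter SLC2A1 measured 43.6, 34.9, 36.1 and 37.3 TPM in SNU1079 and 243, 249, 235 and 219 TPM in SSP25 (-2.61 ± 0.08), and SLC2A3 was -3.32 ± 0.20. The hexokinases HK1 and HK2 were -2.86 ± 0.11 and -2.89 ± 0.13, the ATP-forming kinase PGK1 -2.52 ± 0.08, TPI1 -1.65 ± 0.10, pyruvate kinase (PKM) -1.50 ± 0.06, ALDOA -1.34 ± 0.09 and ENO1 -1.15 ± 0.10. SLC16A3, the exporter of lactate, measured 43.4 to 72.7 TPM in SNU1079 and 504 to 673 TPM in SSP25 (-3.33 ± 0.18). Against this trend stood HKDC1, a further hexokinase, at 1.35 ± 0.10, and PFKFB3, which makes the activator of phosphofructokinase, at 321, 291, 281 and 245 TPM in SNU1079 and 17.9, 23.3, 16.4 and 19.5 TPM in SSP25 (3.82 ± 0.11). Of 35 glycolysis and lactate genes tested of 47 listed, 18 were at least 2-fold higher in SSP25 and 5 in SNU1079, with a median of -1.15, which stayed below 0 under each alternative processing.

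Mitochondrially encoded subunits of the respiratory chain went the other way. All 13 were called higher in SNU1079, 5 of them at least 2-fold, with a median of 0.83. MT-ATP6, a subunit of ATP synthase, measured 11274, 13177, 12826 and 15225 TPM in SNU1079 and 4053, 4997, 5517 and 6347 TPM in SSP25 (1.34 ± 0.07), without overlap. Nuclear genes for subunits of the same complexes had a median of -0.31, with 4 of 77 tested at least 2-fold higher in SNU1079 and 13 in SSP25, and that median was 0.00074 after rescaling without mitochondrial and ribosomal protein genes. Tricarboxylic acid cycle genes were even, with 6 of 36 at least 2-fold higher in each line. IDH1, the cytosolic isocitrate dehydrogenase that is mutated in SNU1079 per the study, measured 85.8, 104, 49.2 and 66.3 TPM in SNU1079 and 185, 199, 107 and 102 TPM in SSP25 (-0.94 ± 0.10), and the 2 ranges overlapped across treatments though SSP25 was higher in each pair. Its mitochondrial relative IDH2 was 0.80 ± 0.13. D2HGDH, which clears the 2-hydroxyglutarate that mutant IDH1 makes, measured 30.8, 25.6, 21.4 and 21.7 TPM in SNU1079 and 5.25, 4.96, 6.28 and 6.6 TPM in SSP25 (1.93 ± 0.15).

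Serine, glycine and one-carbon (SGOC) enzymes had no common direction, with 7 of 30 tested at least 2-fold higher in SNU1079 and 6 in SSP25, but single steps were far apart. PHGDH, the first step of serine synthesis, measured 0.24, 0.15, 0.19 and 0.08 TPM in SNU1079 and 85.5, 65.4, 24.4 and 18.5 TPM in SSP25, at -5.14 ± 0.34 (limma adjusted p = 1.13e-05). All 4 SNU1079 values lay below 1 TPM, so by these values SNU1079 held hardly any PHGDH mRNA even with vehicle. The study, by contrast, measured PHGDH protein on Western blots of SNU1079 cells and xenografts. It reports that PHGDH RNA and protein fell stepwise with single drugs and the combination. Why these mRNA values and the study's report differ was not tested. PSAT1, the second step, was abundant in both, at 185, 98.5, 109 and 49.3 TPM in SNU1079 and 254, 179, 67.1 and 67.8 TPM in SSP25, and its difference of -0.27 ± 0.23 was not called (limma adjusted p = 0.314). PSPH, the last step, was higher in SNU1079, at 217, 132, 117 and 76.7 TPM against 49.2, 38, 16.8 and 19.6 TPM (2.13 ± 0.15).

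Downstream of serine the lines also split. The cytosolic hydroxymethyltransferase SHMT1 was -1.96 ± 0.10 and its mitochondrial form SHMT2 -0.49 ± 0.09 (no longer called after rescaling without mitochondrial and ribosomal protein genes, at -0.18), whereas the glycine cleavage enzyme GLDC measured 16.4 to 26.6 TPM in SNU1079 and 0 to 0.21 TPM in SSP25 (4.40 ± 0.15). The folate receptor FOLR1 measured 197, 83, 133 and 69.3 TPM in SNU1079 and 0.51, 0.46, 0.22 and 0 TPM in SSP25 (6.45 ± 0.20), and MAT1A, the liver form of the enzyme that makes S-adenosylmethionine, was 3.53 ± 0.15. Transsulfuration, which turns homocysteine into cysteine for glutathione, was an SSP25 trait. CBS measured 41.3, 18.7, 21.1 and 7.69 TPM in SNU1079 and 111, 87.2, 64.6 and 51.3 TPM in SSP25 (-1.93 ± 0.19), and CTH 1.86 to 3.4 TPM and 13.5 to 45.1 TPM (-2.78 ± 0.23). In the list of transsulfuration and glutathione enzymes 12 of 27 tested were at least 2-fold higher in SSP25 and 2 in SNU1079 (median -0.90).

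NRF2 is a transcription factor that oxidants release from its inhibitor KEAP1 and that switches on detoxifying and NADPH-making enzymes. Of 37 genes in the target list, all of which were tested, 26 were at least 2-fold higher in SSP25 and 3 in SNU1079, with a median of -1.49. The NRF2 gene itself, NFE2L2, was higher in SNU1079, at 146, 164, 147 and 155 TPM against 67, 63.6, 53.8 and 60.6 TPM in SSP25 (1.31 ± 0.08). The quinone reductase NQO1 measured 405, 921, 261 and 718 TPM in SNU1079 and 1451, 1712, 926 and 1241 TPM in SSP25 (-1.34 ± 0.20). Aldo-keto reductases followed, with AKR1B10 at -2.67 ± 0.24 and AKR1C1 at -3.33 ± 0.22, although AKR1C1 and its neighbour AKR1C2 share much sequence. ALDH3A1, an aldehyde dehydrogenase, was at 9.25 to 37.7 TPM in SSP25 and at most 0.13 TPM in SNU1079. Enzymes of the pentose phosphate pathway and malic enzyme, sources of NADPH or of its substrates, were mixed. Of 21 tested, 11 were called higher in SSP25 (7 at least 2-fold) and 6 in SNU1079 (3 at least 2-fold), with a median of -0.33. Higher in SSP25 were PGD at -1.83 ± 0.09, ME1 at -2.17 ± 0.11 and TALDO1, at 75.9 to 83.7 TPM in SNU1079 and 1050.0 to 1148 TPM in SSP25, at -3.72 ± 0.06. Of the NRF2 list, the heme oxygenase HMOX1 (0.88 ± 0.08) was called higher in SNU1079 and GCLC, a subunit of the enzyme that starts glutathione synthesis, was not called (0.21 ± 0.16, limma adjusted p = 0.275).

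Promoter stretches of a minority of the listed targets that were searched hold the letters to which NRF2 is known to bind. The motif TGACNNNGC, read on both strands, was searched in RefSeq promoters of GRCh38.p14 that span 250 bases before to 50 after the start, and was present in 13.6% of 27305 promoters. Among 26 of the 37 listed genes that had an entry, 6 held it (23.1%), and each of these 6 was called higher in SSP25, as were 30 of the 37 listed genes with or without it. For 5 of them the match lies before the start, and these stretches are shown because the genes moved together. Capitals mark the motif.
GCLM (chr1:93909436-93909484, minus strand): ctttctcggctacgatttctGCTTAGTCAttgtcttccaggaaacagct
PGD (chr1:10398843-10398891, plus strand): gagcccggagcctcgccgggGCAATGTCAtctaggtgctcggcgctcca
ME1 (chr6:83431160-83431208, minus strand): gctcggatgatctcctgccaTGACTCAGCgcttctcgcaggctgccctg
CBR1 (chr21:36069845-36069893, plus strand): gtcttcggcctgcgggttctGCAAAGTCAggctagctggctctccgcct
TXNRD1 (chr12:104215660-104215708, plus strand): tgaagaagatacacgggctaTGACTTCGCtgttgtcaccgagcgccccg
GCLM, the second glutathione synthesis subunit, stood -1.39 ± 0.17 apart, the carbonyl reductase CBR1 -0.83 ± 0.07 and thioredoxin reductase (TXNRD1) -0.93 ± 0.12. A match is a run of letters and not a measured binding site, and 11 list members without an entry were not searched.

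Ferritin, which stores iron, was abundant in both lines and more so in SSP25. FTH1, the ferritin heavy chain and an NRF2 target, measured 9616, 11883, 6630.3 and 9689 TPM in SNU1079 and 33614, 46928, 33905 and 45783 TPM in SSP25 (-2.10 ± 0.10). With the light chain FTL (-1.23 ± 0.11), ferritin took 1.83% of TPM in SNU1079 and 6.03% in SSP25. That made a paired difference of -4.20 ± 1.04 percentage points (SD over 4 pairs), lower in SNU1079 in all 4 (exact two-sided sign-flip p = 0.125, the smallest possible). Uptake genes were higher in SSP25 as well, with the transferrin receptor TFRC at -1.59 ± 0.10, the ferric reductase CYBRD1 at -6.17 ± 0.11 and the siderophore carrier LCN2, at 11.3 to 42.1 TPM in SNU1079 and 667 to 909 TPM in SSP25, at -5.45 ± 0.29. The iron exporter SLC40A1 was among 4 genes at least 2-fold higher in SNU1079 (2.36 ± 0.18), against 12 in SSP25 of 21 tested.

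Lipid genes had the same tilt in part. Cholesterol synthesis genes had a median of -0.88, with 12 of 26 at least 2-fold higher in SSP25 and 1 in SNU1079, DHCR7 (1.18 ± 0.12). Sterol isomerase EBP was -2.62 ± 0.07, the sterol sensor INSIG1 -2.22 ± 0.11 and the factor SREBF2 -1.77 ± 0.15. PLIN2, the coat of lipid droplets, measured 0.24, 0.13, 0.09 and 0.18 TPM in SNU1079 and 177, 217, 179.6 and 226 TPM in SSP25 (-7.43 ± 0.11). ACLY, which makes acetyl-CoA for lipids and histones, was the reverse, at 394, 435, 334 and 392 TPM in SNU1079 and 80.3, 81.5, 81 and 80.5 TPM in SSP25 (2.25 ± 0.08).

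Detoxifying and transport genes were exchanged in pairs. The liver cytochrome CYP3A5 measured 174, 124, 163 and 159 TPM in SNU1079 and 0.26, 0.16, 0.19 and 0.31 TPM in SSP25 (6.98 ± 0.10). Glucuronosyl transferases of the UGT1A locus used different first exons, with UGT1A9 at 81.3 to 178 TPM in SNU1079 and 0.1 to 0.32 TPM in SSP25 and UGT1A10 listed at 0 in SNU1079 and at 249 to 402 TPM in SSP25. These transcripts share their remaining exons, so their single values rest on how shared reads were assigned. The retinal dehydrogenase ALDH1A1 measured 47.8 to 108 TPM in SNU1079 and 0 to 0.18 TPM in SSP25 (6.02 ± 0.19). Drug efflux pumps were exchanged too, with ABCB1 3.69 ± 0.15 higher in SNU1079 and ABCG2 at 35.6 to 58.6 TPM in SSP25 and 0.05 to 0.28 TPM in SNU1079 (-5.48 ± 0.14). Among amino acid genes, the glutamine carrier SLC38A5 was -6.10 ± 0.13, the arginine-making enzyme ASS1 -4.13 ± 0.16 and the branched-chain aminotransferase BCAT1 -4.0 ± 0.16, while the glutamate carrier SLC1A1 was 4.41 ± 0.12.

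In signalling, the genes that the study sequenced for mutations came first. CCND1, cyclin D1, measured 391, 408, 516 and 523 TPM in SNU1079 and 52.4, 51.8, 59.2 and 76.3 TPM in SSP25 (2.92 ± 0.08). ARID1A was slightly higher in SNU1079 (0.64 ± 0.10). The study lists CDKN2A as deleted in both lines. In these tables CDKN2A, which encodes the cell cycle inhibitor p16 and the p53 activator ARF, measured 0, 0.27, 0 and 0 TPM in SNU1079 and 78.7, 81, 82.6 and 59.7 TPM in SSP25, and its neighbour CDKN2B was listed at 0 in SNU1079 and at 9.44 to 15.1 TPM in SSP25. MTAP, the next gene along chromosome 9, was present in both lines (17.2 to 21.4 TPM and 12.7 to 15.9 TPM).

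p53 targets were an SNU1079 group. Of 43 tested of 44 listed, 23 were at least 2-fold higher in SNU1079 and 4 in SSP25, with a median of 1.13 that stayed above 0 under each alternative. CDKN1A (p21), the arrest gene, measured 488, 447, 360.0 and 412 TPM in SNU1079 and 46.9, 80.8, 61.1 and 114 TPM in SSP25 (2.55 ± 0.21). MDM2, the ligase that p53 induces against itself, measured 106, 114, 84.1 and 101 TPM and 21.8, 15.4, 18.2 and 18.8 TPM (2.39 ± 0.12). The secreted stress factor GDF15 (3.38 ± 0.19), the mitochondrial reductase FDXR (3.27 ± 0.10) and the antiproliferative gene BTG2 (4.20 ± 0.12) were apart by more, and the receptor EDA2R was at 4.38 to 6.04 TPM in SNU1079 and listed at 0 in SSP25. TP53I11 was the largest member in the other direction (-2.70 ± 0.09).

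Feedback genes of the MAPK cascade did not share one direction (7 of 31 tested at least 2-fold higher in SNU1079 and 6 in SSP25). The ERK phosphatases DUSP6 and DUSP4 were lower in SNU1079, DUSP6 at 2.41, 2.21, 2.33 and 1.92 TPM against 19.4, 11.9, 21.5 and 18.9 TPM (-2.53 ± 0.15) and DUSP4 at -3.83 ± 0.16, and so was the ETS factor ETV5 (-1.27 ± 0.17). DUSP1, a phosphatase of stress kinases, was 3.56 ± 0.10.

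Growth factor ligands and receptors differed member by member. Among ligands of the EGF receptor family, AREG measured 172, 87.8, 109 and 36.3 TPM in SNU1079 and 13.5, 11.7, 8.66 and 12 TPM in SSP25 (2.85 ± 0.32), and HBEGF, TGFA and NRG1 were 2.77 ± 0.10, 2.02 ± 0.12 and 2.21 ± 0.11 higher in SNU1079. SSP25 instead held the vessel growth factors VEGFC, at 38.8 to 69.9 TPM against 0.12 to 0.29 TPM (-5.51 ± 0.17), and FGF2, at 12.1 to 19.5 TPM against 0.01 to 0.04 TPM (-3.94 ± 0.15). Receptors were higher in SNU1079 in 11 of 28 tested cases at least 2-fold and in SSP25 in 2, with 9 of the 28 past the filter through SNU1079 alone. FGFR4 measured 55.5, 53.8, 47.6 and 42.9 TPM in SNU1079 and 0.48, 0.38, 0.65 and 0.6 TPM in SSP25 (5.06 ± 0.13), FGFR3 was 3.72 ± 0.12, the collagen receptor DDR1 1.80 ± 0.11 and EGFR 1.26 ± 0.08. The carriers of insulin-like growth factors were exchanged, with IGFBP1 at 11 to 55.3 TPM in SNU1079 and listed at 0 in SSP25, and IGFBP3 at 7.64 to 41.5 TPM in SSP25 and at most 0.04 TPM in SNU1079.

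TGF-beta and BMP genes had a median of 0.94, with 15 of 32 tested at least 2-fold higher in SNU1079 and 2 in SSP25. In this list 3 passed the filter through SNU1079 alone and 1 through SSP25 alone. The ligands TGFB2 and INHBA were 2.45 ± 0.15 and 3.58 ± 0.12, and the responders ID2 and SMAD7 4.06 ± 0.16 and 2.84 ± 0.17. ID2 measured 226, 261, 221 and 312 TPM in SNU1079 and 13.2, 11.8, 19.3 and 13.5 TPM in SSP25. GREM1, a secreted BMP antagonist, was an SSP25 gene, at 0.19, 0, 0 and 0 TPM in SNU1079 and 129, 97.7, 210.3 and 174 TPM in SSP25 (-7.14 ± 0.20). The secreted WNT inhibitors DKK3 and DKK1 were higher in SSP25 too. DKK3 was at 316 to 468 TPM there against 0.29 to 1.2 TPM in SNU1079 (-7.79 ± 0.13). DKK1, which both lines held, was at 288 to 394 TPM against 22.4 to 89.2 TPM (-2.78 ± 0.24). Also higher in SSP25 were the ligand WNT5A (-2.77 ± 0.20) and the nuclear factor TCF7 (-3.02 ± 0.14). RNF43, a membrane ligase that WNT induces and that removes its receptors, was at 5.67 to 10.6 TPM in SNU1079 and listed at 0 in SSP25. The WNT list held 12 of 32 tested genes at least 2-fold higher in SNU1079 and 7 in SSP25, and its median of 0.84 became -0.22 with a filter at 5 TPM. Of these 32, 8 passed the filter through SNU1079 alone and 4 through SSP25 alone. In the Notch list 9 of 18 tested were at least 2-fold higher in SNU1079 and 2 in SSP25. Of the 18, 3 passed the filter through SNU1079 alone and 1 through SSP25 alone. LFNG, which tunes Notch receptors for their ligands, measured 267, 228, 256 and 227 TPM in SNU1079 and 8.51, 6.96, 8.67 and 7.72 TPM in SSP25 (4.78 ± 0.07), the ligand JAG2 was 2.39 ± 0.14 and the target HES1 1.66 ± 0.18. The coactivator YAP1 measured 197 to 263 TPM and 65.7 to 90.8 TPM (1.55 ± 0.08). Of 36 YAP and TAZ targets tested, 15 were at least 2-fold higher in SNU1079 and 7 in SSP25, the latter with the follistatin-like FSTL1 (-6.94 ± 0.11). Of these 36, 5 passed the filter through SSP25 alone and 0 through SNU1079 alone.

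Inflammatory genes were mostly higher in SSP25. NF-kappaB, held in the cytoplasm until cytokines or microbes release it, switches on chemokines, interleukins and its own inhibitors. Of 35 chemokine and cytokine genes tested of 54 listed, 22 were at least 2-fold higher in SSP25 and 7 in SNU1079, with a median of -1.60. Of the 35, 6 passed the filter through SSP25 alone and 2 through SNU1079 alone, so they had to differ. The neutrophil chemokine CXCL1 measured 0.54, 0.21, 0.4 and 0.16 TPM in SNU1079 and 305, 143, 278 and 123 TPM in SSP25 (-7.23 ± 0.18), and CXCL8 5.46, 3.5, 14 and 5.26 TPM and 328, 146, 289 and 213 TPM (-5.02 ± 0.20). Interleukin 1 alpha (IL1A) was listed at 0 in SNU1079 and at 29.9 to 92.6 TPM in SSP25, IL1B was -6.02 ± 0.19 and IL6 -4.47 ± 0.27. The acute-phase protein SAA1 measured 2.39, 1.44, 0.35 and 0.56 TPM in SNU1079 and 1523, 1540.1, 1791 and 2944 TPM in SSP25 (-9.84 ± 0.32), with reads that its copy SAA2 can share. The monocyte chemokine CCL2 was a clear exception, at 204, 107, 62.9 and 26.5 TPM in SNU1079 and 23, 7.33, 16.5 and 1.62 TPM in SSP25 (3.01 ± 0.27), and IL32 another (2.03 ± 0.25).

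The kappaB motif GGGNNTTTCC, read on both strands, was in 1.92% of the 27305 RefSeq promoters of the same span. It was in 10 of the 26 listed chemokine and cytokine genes with an entry (38.5%), of which 9 were called higher in SSP25 and 1, IL32, higher in SNU1079. Of all 35 tested members, with or without the motif, 25 were called higher in SSP25 and 8 in SNU1079. Stretches around it are shown for these genes and for 2 antigen presentation genes, because they hold the same letters on both sides of the contrast. Neither motif overlapped the other in a listed gene. Capitals mark the kappaB motif, which in TNFAIP3 occurs in 2 copies.
CXCL1 (chr4:73869294-73869343, plus strand): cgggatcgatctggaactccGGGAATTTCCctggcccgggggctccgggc
CXCL2 (chr4:74099244-74099293, minus strand): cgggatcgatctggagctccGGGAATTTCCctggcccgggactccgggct
CXCL3 (chr4:74038739-74038788, minus strand): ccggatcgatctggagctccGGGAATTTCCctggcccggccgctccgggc
CXCL5 (chr4:73998739-73998788, minus strand): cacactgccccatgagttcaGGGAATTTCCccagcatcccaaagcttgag
CXCL6 (chr4:73836568-73836617, plus strand): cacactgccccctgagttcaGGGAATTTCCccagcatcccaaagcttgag
CCL20 (chr2:227813743-227813792, plus strand): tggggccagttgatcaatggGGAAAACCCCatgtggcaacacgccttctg
IL6 (chr7:22727107-22727156, plus strand): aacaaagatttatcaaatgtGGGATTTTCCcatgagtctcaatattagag
TNFAIP3 (chr6:137867172-137867221, plus strand): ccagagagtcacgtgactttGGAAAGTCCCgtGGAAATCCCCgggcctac
NFKBIA (chr14:35404801-35404850, minus strand): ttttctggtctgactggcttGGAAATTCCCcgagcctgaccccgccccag
IL32 (chr16:3065284-3065333, plus strand): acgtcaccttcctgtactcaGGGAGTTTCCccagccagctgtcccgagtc
B2M (chr15:44711372-44711421, plus strand): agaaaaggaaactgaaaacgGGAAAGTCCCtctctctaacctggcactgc
TAP1 (chr6:32853747-32853796, minus strand): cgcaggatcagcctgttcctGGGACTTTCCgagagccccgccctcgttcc
The 5 CXCL genes are neighbouring relatives on chromosome 4, and several of their stretches are nearly the same, so they do not count as separate cases. CXCL2 was -2.96 ± 0.16, CXCL3 -1.71 ± 0.23, CXCL5 -1.31 ± 0.12, CCL20 -1.38 ± 0.20, and CXCL6 was listed at 0 in SNU1079 and at 2.67 to 14.6 TPM in SSP25. The inhibitors of NF-kappaB that it induces, TNFAIP3 and NFKBIA, were -2.95 ± 0.13 and -0.87 ± 0.09. Listed genes without an entry (9 of 35) were not searched.

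Antigen presentation genes were higher in SSP25. Of 40 tested of 44 listed, 23 were at least 2-fold higher in SSP25 and 4 in SNU1079, with a median of -1.35 and 6 of the 40 past the filter through SSP25 alone. B2M, the shared light chain of class I molecules, measured 731, 1019, 532 and 767 TPM in SNU1079 and 6745, 6114, 6707 and 6414 TPM in SSP25 (-3.13 ± 0.15). The heavy chains HLA-B and HLA-C were -4.02 ± 0.07 and -3.24 ± 0.10 apart. HLA genes vary between people, so their values rest on how well reads matched the reference. The peptide transporter TAP1 was -1.27 ± 0.12 and its partner TAPBP -1.39 ± 0.11. The kappaB letters were in 4 of the 32 genes of this list with an entry (12.5%). These were B2M and TAP1, shown above, and TAPBP and CD74. For class II presentation, the chaperone CD74 and the master regulator CIITA were near 0 in SNU1079. CD74 measured 0.23 to 0.41 TPM in SNU1079 and 24.8 to 80.0 TPM in SSP25 (-5.16 ± 0.25), and CIITA 0.09 to 0.2 TPM and 2.63 to 5.45 TPM (-2.09 ± 0.19). Values of the class II chains are not given here.

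Among interferon-responsive genes, the DNA sensing adaptor STING (TMEM173) was at 10.8 to 30.6 TPM in SSP25 against 0 to 1.4 TPM in SNU1079 (-4.06 ± 0.19) and the sensor cGAS (MB21D1) at 6 to 12.9 TPM against 0 to 0.13 TPM (-3.26 ± 0.19). Of 56 such genes tested, 18 were at least 2-fold higher in SSP25 and 4 in SNU1079, 17 were not called, and 8 passed the filter through SSP25 alone and 2 through SNU1079 alone. BST2, an antiviral tether, measured 113, 106, 118 and 106 TPM in SNU1079 and 8.24, 2.1, 5.2 and 0.89 TPM in SSP25 (4.71 ± 0.33), opposite to most of the list, as did IFITM2 (2.91 ± 0.22).

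The molecules on which the drugs act differed little. BRD2 measured 130.4, 180.0, 134 and 166 TPM in SNU1079 and 122, 164, 111 and 177 TPM in SSP25, and BRD2 and BRD3 were 0.10 ± 0.08 and -0.35 ± 0.18, neither of them called (limma adjusted p = 0.277 and 0.111). Cereblon (CRBN) was 0.052 ± 0.09 and not called (limma adjusted p = 0.628), at 16.5 to 20.5 TPM and 17.3 to 20.5 TPM, while its adaptor DDB1 was called at -0.52 ± 0.07. After the rescaling named above, which moved the median of all genes by 0.271, BRD2 and CRBN were called at 0.41 and 0.35. MYC was 1.58 ± 0.08 and HEXIM1, a brake on transcription elongation that BET inhibition is known to raise, measured 78.2, 85.3, 73.2 and 86.6 TPM in SNU1079 and 13.4, 14.5, 15.9 and 13.1 TPM in SSP25 (2.43 ± 0.10).

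MTOR itself was lower in SNU1079, at 11.9, 13.3, 9.21 and 9.45 TPM against 24.7, 24.1, 22.5 and 22.3 TPM (-1.04 ± 0.10). Some members of its pathway were further apart. The Rag GTPases RRAGC and RRAGD, which carry the amino acid signal, were -2.37 ± 0.10 and -2.51 ± 0.08, and PRR5L, an mTORC2 partner, was at 0.22 to 1.01 TPM in SNU1079 and 42.1 to 67.7 TPM in SSP25 (-5.24 ± 0.12). The insulin receptor substrate IRS1 was 1.55 ± 0.09 and the amino acid brake SESN3 2.11 ± 0.23. Of 59 pathway genes tested, 7 were at least 2-fold higher in SNU1079 and 12 in SSP25, and the median of -0.15 turned to 0.15 after rescaling without mitochondrial and ribosomal protein genes.

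Cell death genes were mixed, with 10 of 43 tested at least 2-fold higher in SNU1079 and 7 in SSP25. The survival gene BCL2 was at 3.83 to 5.43 TPM in SNU1079 and 0.07 to 0.13 TPM in SSP25 (2.41 ± 0.15), and BCL2L1 (BCL-XL), abundant in both, measured 302, 257, 290.4 and 248 TPM and 117, 97.1, 98.7 and 109.8 TPM (1.37 ± 0.08). The inhibitor of apoptosis BIRC7 was 3.57 ± 0.21. The inflammatory caspases CASP1 and CASP4 were -4.12 ± 0.12 and -3.53 ± 0.11. Among chromatin genes the DNA methyltransferase DNMT3A was 2.26 ± 0.16, SMARCA4 1.12 ± 0.08 and the nucleosome remodeller SMARCA1 -4.09 ± 0.13.

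Mitosis genes did not differ in a steady way. Of 35 tested, 23 were not called, 2 were at least 2-fold higher in each line, and the list median ran from -0.72 with vehicle through -0.33 with BETp and 0.38 with the combination to 0.53 with mTORi. The sign of this median thus differed between treatments. Each treatment had 1 culture per line, so an effect of the drug cannot be told apart from one of the culture. No line-by-drug term was tested for the list. DNA replication genes had a median of 0.47, from -0.14 with vehicle to 0.74 with mTORi and 0.77 with the combination. Ribosomal protein genes were called higher in SNU1079 in 58 of 79 tested cases and in SSP25 in 16, with a median of 0.64. Of all genes, 38.2% and 35.8% were called in these directions. At least 2-fold higher were 12 of the 79 in SNU1079 (15.2%) and 0 in SSP25, beside 18.2% and 17.1% of all genes. RPS3 stood out at 12323, 11791, 14489 and 14144 TPM in SNU1079 and 1848, 1660.3, 1994 and 1761 TPM in SSP25 (2.86 ± 0.06).

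**Figure D4:**
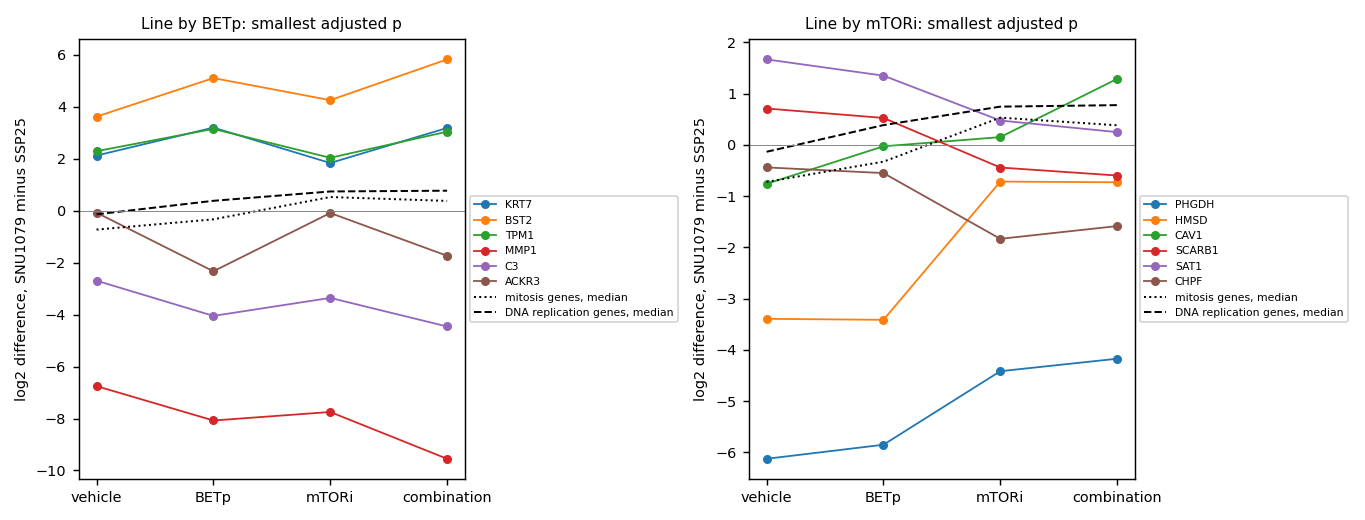
Line difference (SNU1079 minus SSP25, log2) in each treatment for the genes with the smallest adjusted p in the line-by-drug tests and for the medians of the mitosis and DNA replication lists. A level line means the same difference in each treatment, and each point rests on 1 culture per line. PHGDH runs from -6.12 with vehicle to -4.17 with the combination, and the mitosis median from -0.72 to 0.53.

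Whether the difference held whatever the drug was also tested directly, in a model with line-by-BETp and line-by-mTORi terms. It has 2 residual degrees of freedom and little power. Of 16060 genes, 1 was called for BETp (0.00623%) and 0 for mTORi (0%) by limma, with 1984 and 2282 at an unadjusted p under 0.05, where 803 would be reached by a flat distribution of p. In simulated data of the same size the test for BETp found 22% of 100 terms planted at a log2 size of 1 and 77% of 100 at 2. It also made 18 false calls. The called gene was SNORA3B, a short RNA at 0, 46.6, 0 and 38 TPM in SNU1079 and at 0 in SSP25, whose capture is uncertain, and the call was lost when any 1 library was left out. The protein-coding genes with the smallest adjusted p did not pass. KRT7 was 1.21 ± 0.10 for BETp, with 688, 404, 812 and 409.8 TPM in SSP25, BST2 1.53 ± 0.13 and MMP1 -1.56 ± 0.19 (limma adjusted p = 0.123, 0.123 and 0.173). For mTORi PHGDH was 1.69 ± 0.17, with SSP25 at 85.5 TPM with vehicle and 24.4 TPM with mTORi, and the lipoprotein receptor SCARB1 was -1.14 ± 0.09, at 146, 143, 65.2 and 64.7 TPM in SNU1079 and 89.2, 99.2, 89 and 98.6 TPM in SSP25 (limma adjusted p = 0.213 and 0.194). A term that misses the threshold does not show that the lines responded alike.

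The difference between the lines varied along the genome. Over protein-coding genes placed on GRCh37 the median difference was -0.0084, and by chromosome it ran from -0.73 on chromosome 9, -0.71 on X and -0.62 on 11 to 0.46 on chromosome 2. In windows of 5 Mb with at least 20 genes, 223 in all, the highest median was 2.49, on chromosome 12 from 25 to 30 Mb. There 18 of 23 genes were at least 2-fold higher in SNU1079. Among them are LYRM5 (2.81 ± 0.08), RASSF8 (3.01 ± 0.12), MED21 (2.88 ± 0.10), STK38L (3.52 ± 0.14), MRPS35 (2.88 ± 0.10) and KLHL42 (3.57 ± 0.09), which are named for their position alone. BCAT1 (chromosome 12, 24962958 to 25102035), the branched-chain gene that spans the start of the window, and LDHB (chromosome 12, 21788276 to 21910791), which lies before it, were SSP25 genes.

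Chromosome 11 was divided. From 70 to 75 Mb the median was 1.60 with 33 of 45 genes at least 2-fold higher in SNU1079, and from 75 to 80 Mb it was 1.90 with 20 of 25. FOLR1 (chromosome 11, 71900602 to 71907367), DHCR7, the synapse scaffold SHANK2 (5.63 ± 0.13), the collagen chaperone SERPINH1 (4.69 ± 0.12), RPS3 and the respiratory subunit NDUFC2 (1.74 ± 0.07) lie there. CCND1 (chromosome 11, 69455924 to 69469242) and the hormone FGF19, at 3.66 to 4.59 TPM in SNU1079 and 0 to 0.04 TPM in SSP25 (2.29 ± 0.14), lie just before. The rest of the chromosome held the windows of lowest median, -1.42 from 110 to 115 Mb, -1.405 from 10 to 15 Mb and -1.32 from 15 to 20 Mb. So FOLR1 and DHCR7, named above for metabolism, stand in a stretch where most genes were higher in SNU1079. Several genes named above as higher in SSP25 likewise stand in windows of negative median. LDHA and SAA1 lie in the window from 15 to 20 Mb of chromosome 11. EBP and SLC38A5 lie from 45 to 50 Mb of X (median -1.23) and ASS1 and LCN2 from 130 to 135 Mb of chromosome 9 (-1.09). MTOR and PGD lie from 10 to 15 Mb of chromosome 1 (-0.85). DNA copy number was not measured in these tables and its part in these differences was not tested.

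**Figure D5:**
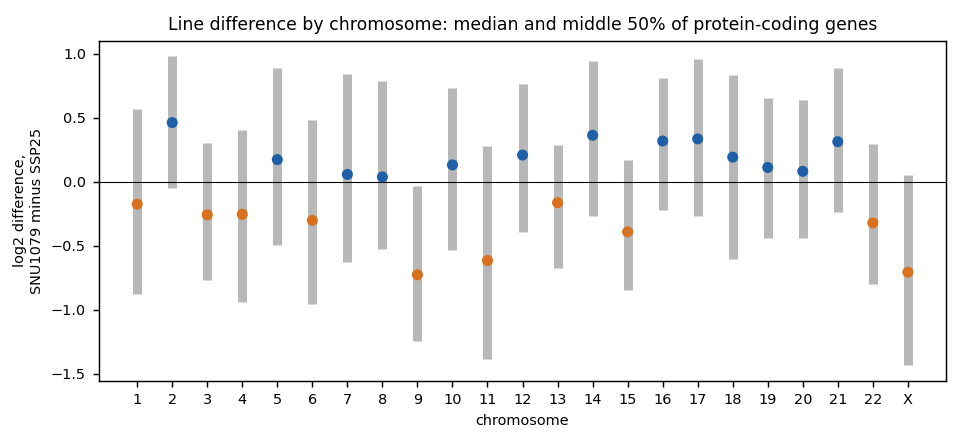
Line difference (SNU1079 minus SSP25, log2) of protein-coding genes by chromosome, with the median as a point and the middle 50% of genes as a line. Chromosomes 9, 11 and X lie lowest with medians of -0.73, -0.62 and -0.71, and chromosome 2 highest with 0.46.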

How the data were processed

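RNA was sequenced from 8 cultures, SNU1079 and SSP25 with each of 4 treatments, as strand-specific paired-end libraries (per the study's methods). The authors deposited 1 table of TPM per line, on GRCh37 per the submitters' processing notes. No aligner, counter, annotation version or read depth is stated in the methods or notes used here, so no counting interval could be given. All 8 columns of values were used and 0 were left out. The processing notes also name DESeq2 and edgeR, which need counts and were not used here. Groups came from the sample labels.

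From these values log2(TPM + 1) was computed, keeping genes with at least 1 TPM in at least 2 libraries. The line difference was fitted with limma 3.58.1 (R 4.3.3) with treatment as a block and an intensity trend (3 residual degrees of freedom), two-sided, with Benjamini-Hochberg adjustment and a threshold of 0.05. Line-by-drug terms came from a second model with 2 residual degrees of freedom. Simulated data with 16060 genes were used to test the scripts, and 83% of line differences planted at a log2 size of 1 and 100% at 2 were found, with 17 false calls. Symbols were placed on GRCh37 for 34584 genes (GENCODE 44 lifted to that build, 1416 of them through RefSeq synonyms). Promoters came from RefSeq on GRCh38.p14, and no coordinate was carried between builds. Figures were drawn with matplotlib 3.10.9.

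Members, gene lists and tests were chosen with earlier results of these data known. Genes were named by rule, without sex marker genes. They were the 12 largest non-overlapping differences per direction with a mean of at least 5 TPM, up to 4 called members per list and direction together with the key members of a list, up to 3 genes per direction for each line-by-drug term, up to 8 per direction of those present in 1 line only, and genes at the ends of genomic runs. CD3E and DCN were marker genes. Chosen after their values were seen were ACLY, ALDOA, AQP1, BCAT1, CBR1, CCL20, CIITA, CXCL2, CXCL3, CXCL5, CXCL6, DDR1, DSP, ENO1, FOXA1, GCLC, GCLM, HBEGF, HLA-C, IL1A, KLHL42, LDHA, LYRM5, MED21, MMP14, MRPS35, NFKBIA, NRG1, PGD, PGK1, PKM, RASSF8, SERPINH1, SHANK2, SMARCA4, SNORA3B, STK38L, TAPBP, TGFA, TNC, TNFAIP3, TPI1, TXNRD1 and YAP1. Alternatives were a pseudocount of 0.1, no filter or one at 5 TPM, quantile normalization, rescaling without 784 mitochondrial and ribosomal protein genes, robust variances, no treatment block and leaving out libraries. A few listed genes are not reported here.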

Additional observations from a re-analysis of the deposited data

Results flagged for a closer look

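Among 4 paired differences of a gene or list, a value counted as far from the others when its gap to the nearest one, divided by the whole range, exceeded Dixon's 95% critical value. Chance gives such a value in about 1 in 20 groups, which would be 14 of the 286 groups examined, and 4 were found. With the combination the CLDN2 difference was 8.195, below the 8.599 to 8.666 of the other treatments. With mTORi PRR5L differed by -5.568, against -5.173 to -5.095 in the others, and SLC38A5 by -6.503, against -6.011 to -5.91. The metallothionein list had a median of -0.2786 with the combination and -0.4078 to -0.3874 otherwise. Each of these values kept the direction of its neighbours. SNORA3B was taken up because its line-by-BETp term of 5.43 was called (limma adjusted p = 0.0238), with 0, 46.6, 0 and 38 TPM in SNU1079 and 0 TPM in each SSP25 library.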

How the results depend on the processing

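The 11881 called genes became 9142 to 13078 under the alternatives, and the 5668 called at least 2-fold apart 4208 to 6895. Without the treatment block they were 11212 and 5651. Limits of 5 and 0.5 TPM gave 439 genes present in 1 line only in place of 110, and 118 to 136 did so when both libraries of a treatment were left out. For line by BETp the single call became 0 with a pseudocount of 0.1, 0 without a filter, 37 with a filter at 5 TPM and 0 to 0 with each library left out, while line by mTORi went from 0 to 9 with the filter at 5 TPM. That filter leaves fewer genes to adjust over, and whether this makes the rise was not tested.

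Of 54 lists, 26 had a median above 0, against 21 to 32 under the alternatives, and 14 list medians changed sign, among them those of transcription factors, WNT genes and ABC transporters with the filter at 5 TPM. Rescaling turned CDH2 to 0.28, PSAT1 to 0.038 and ZEB1 to 0.11. Quantile normalization turned CDH2 to 0.18 and VIM to -0.35. With both libraries of a treatment left out, CDH2 ran from -0.12 to 0.14, SCARB1 from -0.17 to 0.26, VIM from -0.026 to 0.032 and CAV1 from -0.21 to 0.47. None of the genes in this paragraph that turned had been called by limma before. Of 232 named genes called (those of the plots included), 228 kept direction and call under every alternative in which they were tested. Depth is unknown, and how far values at or near 0 depend on it was not tested. Without repeat cultures, batch and line cannot be told apart.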
